A study of Astyanax mexicanus with 8 samples.

Results

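Interferon and nucleic acid sensing genes were followed in spheroids of 2 fish liver-derived cell lines. Members were taken by gene name alone. They were interferons and receptors with names beginning ifn, the interferon regulatory factors (names beginning irf and a digit), the STAT transcription factors and Toll-like receptors. The isg, ifi, ifit, nlrc and socs genes and a short list of single sensors, adaptors and antiviral effectors were also taken. The rule found 71 of the 27420 listed genes, under 66 distinct names. The name isg15 was carried by 4 of these genes, tlr2 by 2 and tlr7 by 2, and 4 were binding partners of Irf2 (irf2bp1, irf2bp2a, irf2bp2b and irf2bpl), which the name rule takes in although they are not interferon regulatory factors. The remaining 8 single names of the rule (mxb, mxc, ddx58, rigi, mavs, cgasa, ticam1 and usp18) matched no listed gene and are not analysed here.

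The lines come from the Mexican tetra Astyanax mexicanus, SFL made from the surface form and CFL from a cave form that the titles call Pachon. Both are labelled wild type and the labels name no treatment other than spheroid culture, in which cells seeded in wells that they cannot attach to aggregate freely. Cells were seeded at 10000, 25000, 50000 or 100000 per well, the labels give day 28, and each line has 1 library per density, 8 in all. Since each form is represented by a single line, a difference between SFL and CFL belongs to these lines and cannot be assigned to surface or cave origin.

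In vertebrates, nucleic acids of viruses or of damaged cells are sensed by Toll-like receptors in endosomes, by RNA helicases in the cytosol and by the cGAS and STING pathway for DNA. Adaptors and kinases then activate the interferon regulatory factors Irf3 and Irf7, which switch on interferon genes. Secreted interferon acts through Janus kinases on STAT proteins, which with Irf9 turn on the interferon-stimulated genes, while SOCS proteins, themselves induced by STATs, damp the signal. Liver cells are known to carry most of this machinery and to answer interferon.

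Values are TPM (transcripts per 1000000), which divide the estimated reads of a gene by its length and rescale each library to the same total, so levels may be compared between genes. TPM keep no record of depth, and a gene at 0 is described as listed at 0. Between 17819 and 19408 genes were above 0 in a library, and of the members between 55 (SFL at 50000 cells) and 66 (CFL at 100000). The members together held 478.4 to 744.4 TPM in SFL and 527.5 to 796.5 TPM in CFL, with the lowest sum of each line at 50000 cells and the highest in CFL at 100000 cells. The liver label was checked against hepatocyte markers, which summed to between 393.71 and 494.69 TPM in SFL and between 12.16 and 29.5 TPM in CFL. Most of the SFL sum came from rbp4 (225.71 to 304.02 TPM) and cebpa (102.63 to 140.72 TPM). Of the 17 hepatocyte marker genes, 8 stayed below 1 TPM in every library. Within that list tat, a tyrosine-degrading enzyme, lay the other way, at 0 to 0.02 TPM in SFL and 1.28 to 2.23 TPM in CFL. The low ambp was above 0 only in CFL, at up to 0.44 TPM. Markers of other liver cell types also differed in level between the lines, and their part in the line differences was not tested. Biliary markers summed to 6876.5 to 9433.22 TPM in SFL and 796.8 to 1184.97 TPM in CFL, endothelial markers to 48.69 to 90.97 and 14.92 to 30.24 TPM, and stellate cell and fibroblast markers to 271.65 to 338.23 and 109.76 to 221.36 TPM. Most of the biliary sums came from krt8 and krt18a.1, and most of the endothelial sums from kdrl. In every library 4 of the 8 biliary and 6 of the 8 endothelial genes stayed below 1 TPM. Single stellate cell and fibroblast markers lay in both directions. acta2 stood at 94.11 to 103.25 TPM in SFL and 0.17 to 0.45 TPM in CFL. pdgfra (0.06 to 0.25 TPM in SFL, 5.66 to 20.38 TPM in CFL) and pdgfrb (0.22 to 1.16 and 2.62 to 10.55 TPM) lay the other way. ttr, the gene of the thyroid hormone carrier transthyretin, was listed at 0 in every library. fabp10a, the liver fatty acid binding protein of fish, was listed at 0 in 6 of 8 libraries, all of SFL among them. It reached 2.05 TPM in CFL at 50000 and 0.62 TPM in CFL at 100000 cells. Leukocyte markers are given beside irf8.

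The first comparison asked which members differed between the lines. Of the 49 members with a mean of at least 1 TPM over the 8 libraries, 21 were higher and 5 lower in CFL at an adjusted p-value under 0.05 (limma on log2(TPM + 1), with line and log2(density) as terms, Benjamini-Hochberg adjustment over all 13783 genes tested). These 26 were 53.1% of the members, where 58.9% of all tested genes were called. By direction, 42.9% of the members were higher and 10.2% lower, where 27.6% and 31.3% of all tested genes were called so. The median difference, CFL minus SFL, was 0.41 on the log2 scale over the members and -0.04 over all tested genes. Of the 49, 13 reached a mean of 1 TPM in only 1 of the lines (9 in CFL, 4 in SFL) and passed the filter through that line. The other 22 of the 71 members did not pass the filter, and 3 of them (ifng1, irf1a and tlr21) were listed at 0 in every library. Among the 36 with such a mean in both lines, 14 were higher and 4 lower, against 24.4% and 29.4% of all genes with the same property. At a log2 difference of at least 1 in size, 12 members were higher and 1 lower (14.2% and 15.4% of all tested genes). All 4 CFL libraries lay above all 4 SFL libraries for 16 of the 49 members (22.2% of all genes), and all 4 SFL libraries lay above those of CFL for 4 (26.8%). The counts by size and by overlap both include members that passed the filter through 1 line only. Through CFL these were irf7, irf2bpl, tlr7 (ENSAMXG00000001751), mxa and the isg15 genes ENSAMXG00000029458 and ENSAMXG00000035639, and through SFL irf8.

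Pairing the libraries of equal density as a replicate block, 33 of the 49 (67.3%) were called, against 71.2% of all genes. Of the 33, 23 were higher and 10 lower. Shares of all genes by direction are not given for this fit, so the split is not read as a result about the members. The members added by the block were stat5a, eif2ak2, trim25, stat2, stat1a, socs6a and stat6, and their blocked values are given with each gene. Without CFL at 100000 cells the median difference of the members was 0.26.

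**Figure D1:**
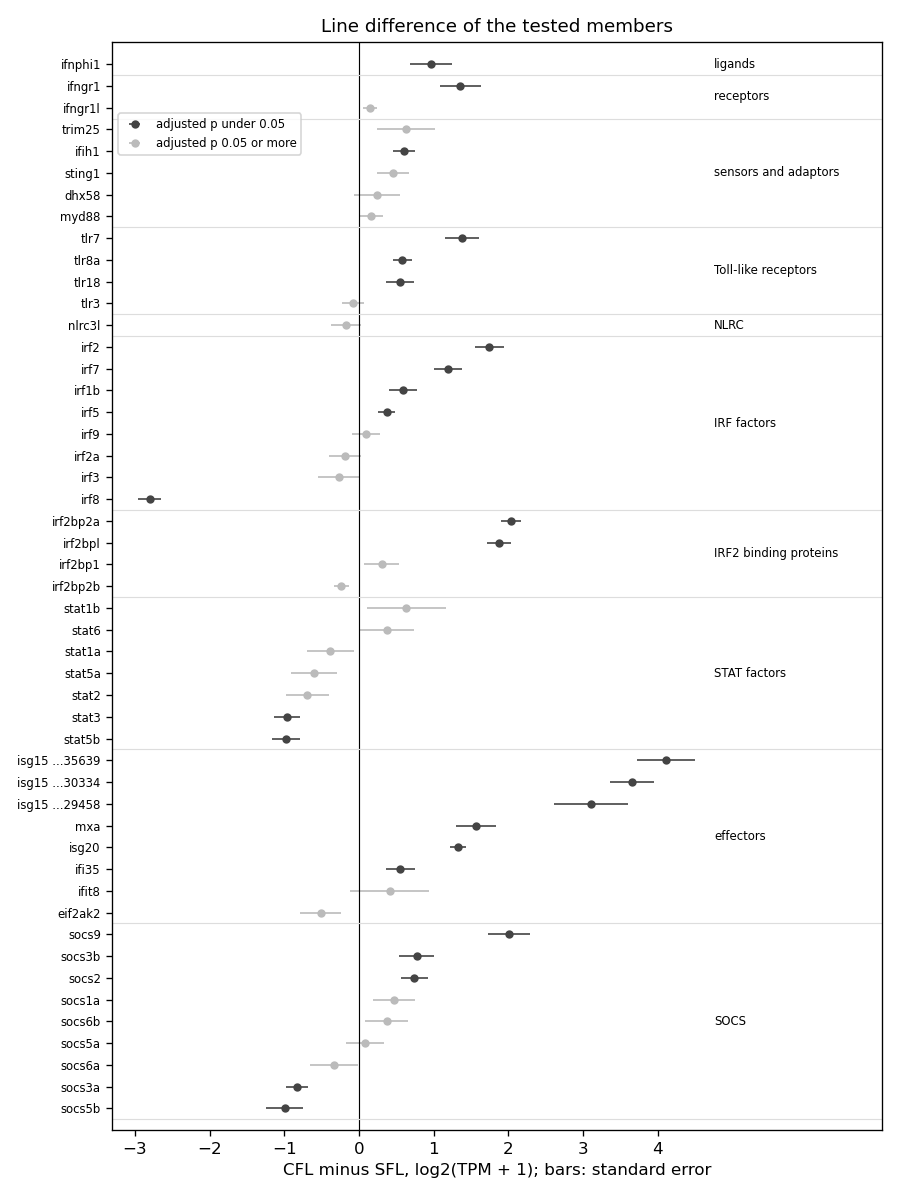
Difference between the lines for the 49 tested members, CFL minus SFL on the log2(TPM + 1) scale (x axis), grouped by role; points are limma estimates, bars their standard errors, and dark points have an adjusted p-value under 0.05. Of the dark points 21 lie to the right of 0, led by the 3 tested isg15 genes, and 5 to the left, with irf8 farthest out at -2.80.

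Of the interferon genes themselves, 1 of 2 was measured above 0. ifnphi1, a fish type I interferon, stood at 2.04, 1.1, 0.59 and 2.99 TPM in SFL and at 3.83, 3.26, 4.11 and 4.60 TPM in CFL, in order of rising density. All CFL libraries lay above all SFL libraries, and the log2 difference was 0.96 (SE 0.28, limma adjusted p = 0.0168). The call was lost when CFL at 10000 or at 100000 cells was left out (adjusted p = 0.0551 and 0.0502). ifng1, the type II interferon made mainly by lymphocytes, was listed at 0 in every library.

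Of the genes named for the ligand-binding chain of the type II interferon receptor, ifngr1l was the more abundant, at 64.10, 55.50, 50.93 and 56.79 TPM in SFL and at 58.47, 62.06, 65.68 and 65.81 TPM in CFL. Its ranges overlapped, and the difference of 0.15 did not pass (SE 0.10, limma adjusted p = 0.218). ifngr1 stood at 7.98, 5.83, 2.58 and 3.70 TPM in SFL and at 18.95, 21.89, 7.06 and 11.12 TPM in CFL. CFL had the greater value at every density, although CFL at 50000 cells lay below SFL at 10000. The log2 difference was 1.36 (SE 0.28, limma adjusted p = 0.00305).

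Shares of all tested genes against which the counts by role and by list below are to be read are 27.6% higher and 31.3% lower. Among cytosolic sensors and adaptors, 1 of 5 was called. ifih1, which encodes the long double-stranded RNA sensor MDA5, stood at 5.81 to 8.99 TPM in SFL and 9.78 to 12.55 TPM in CFL, without overlap (log2 difference 0.60, SE 0.15, limma adjusted p = 0.00882). dhx58, the related helicase LGP2, had overlapping ranges of 3.68 to 7.14 TPM and 4.53 to 11.30 TPM (adjusted p = 0.527). sting1, the adaptor that answers the cyclic dinucleotide made by cGAS, ranged from 2.52 to 5.42 TPM in SFL and 4.40 to 6.31 TPM in CFL (adjusted p = 0.101). myd88, the adaptor of most Toll-like receptors, stood at 10.83, 9.46, 6.66 and 8.68 TPM in SFL and at 11.41, 11.41, 7.74 and 9.72 TPM in CFL, with an adjusted p of 0.390. trim25, a ubiquitin ligase known for activating the RNA sensor RIG-I, ranged from 1.22 to 7.26 TPM and from 2.61 to 12.12 TPM. Its adjusted p was 0.196, and 0.00401 with the replicate block.

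Toll-like receptors were low throughout, and only 4 of 12 passed the filter. tlr7 (ENSAMXG00000001751), a receptor for single-stranded RNA, was at 0.12, 0.04, 0.09 and 0.06 TPM in SFL and at 1.05, 0.99, 2.33 and 3.52 TPM in CFL. The ranges did not overlap and the log2 difference was 1.38 (SE 0.23, limma adjusted p = 0.000922). tlr8a, a relative of tlr7, stood at 2.92 to 3.18 TPM in SFL and 4.16 to 5.78 TPM in CFL, again without overlap (0.58, SE 0.13, adjusted p = 0.00504). tlr18, a receptor found in fish, was called at 0.55 (SE 0.19, adjusted p = 0.0330), and the call was lost in 6 of 8 fits that left out 1 library, all but those without SFL at 10000 or CFL at 50000 cells, with adjusted p up to 0.0876. tlr3, which senses double-stranded RNA, stood near 1 TPM in both lines (1.11 ± 0.38 in SFL and 0.98 ± 0.26 in CFL, SD, n = 4, adjusted p = 0.653).

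The 8 Toll-like receptor genes below the filter were tlr2 (both genes), the second tlr7, TLR5, tlr9, tlr19, tlr21 and tlr22. The more abundant tlr2, a receptor for bacterial lipopeptides, stood at 1.61, 2.69, 0.86 and 0.85 TPM in SFL and at 0.11, 0, 0 and 0.13 TPM in CFL, so that every SFL library lay above every CFL library. tlr21 was listed at 0 in every library. The others did not exceed 0.84 TPM, which TLR5, named for the flagellin receptor, reached in SFL at 25000 cells. In the NLRC family, nlrc3l, which in zebrafish keeps macrophages from inflammatory activation, stood at 8.80, 8.49, 4.77 and 6.10 TPM in SFL and at 8.82, 7.44, 3.55 and 5.17 TPM in CFL (adjusted p = 0.478), and nlrc3 did not exceed 0.32 TPM.

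Of the 8 tested interferon regulatory factors, 4 were higher in CFL, 1 was lower and 3 were not called (27.6% and 31.3% of all tested genes were higher and lower). irf8, a factor of myeloid cell development, stood at 9.13, 12.26, 8.63 and 9.03 TPM in SFL and at 0.43, 0.72, 0.54 and 0.45 TPM in CFL. The SFL mean was 18.2-fold that of CFL, and the log2(TPM + 1) difference was -2.80 (SE 0.15, limma adjusted p = 1.49e-06). Markers of macrophages and other leukocytes were read beside it. Their summed level ran from 81.45 to 132.64 TPM in SFL and from 80.41 to 123.86 TPM in CFL, nearly all of it from a gene named MPEG1 (34.90 to 99.39 TPM) and itgb2 (24.42 to 60.14 TPM). Single markers lay in both directions. All SFL libraries lay above all CFL libraries for 3 of the 24, where 26.8% of all tested genes lay so. These were lcp1 (0.80 to 2.15 TPM against 0.13 to 0.31 TPM) and the MFAP4 genes ENSAMXG00000031348 (1.62 to 3.14 against 0.07 to 0.29 TPM) and ENSAMXG00000037154 (1 to 2.17 against 0.26 to 0.99 TPM). All CFL libraries lay above those of SFL for 3 others, itgb2, coro1a and csf1ra (22.2% of all tested genes). Both shares are over genes with a mean of at least 1 TPM, which only 4 of the 24 markers reached, so the sets are unlike. The part of leukocytes in the irf8 difference was not tested. Of the 24 marker genes, 18 stayed below 1 TPM in every library. The pan-leukocyte gene PTPRC did not exceed 0.44 TPM, the myeloid factor spi1b 0.06 TPM and laptm5 0.04 TPM, and 3 genes, rag1 among them, were listed at 0 throughout. In bulk RNA, fewer cells that express a gene and less of its RNA per cell cannot be told apart.

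irf2, known as an antagonist of Irf1, was at 6.03, 7.23, 3.79 and 4.77 TPM in SFL and at 23.41, 23.96, 14.45 and 20.50 TPM in CFL. The ranges did not overlap, and the log2 difference was 1.75 (SE 0.19, limma adjusted p = 8.52e-05). irf7, the interferon-inducible activator of interferon genes, was at 0.70, 1.36, 1 and 0.60 TPM in SFL and at 4.02, 4.16, 2.35 and 3.09 TPM in CFL (log2 difference 1.2, SE 0.19, adjusted p = 0.000706). irf3, its constitutive partner, overlapped between the lines at 14.41 to 26.78 TPM and 9.54 to 23.34 TPM (adjusted p = 0.435), and so did irf9, the DNA-binding subunit of the interferon-activated STAT complex (8 to 14.23 TPM and 10.69 to 14.29 TPM, adjusted p = 0.707). irf2a, a low second copy of irf2, ranged from 0.69 to 2.34 TPM and from 0.51 to 1.60 TPM (adjusted p = 0.463).

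Differences of irf1b and irf5 were small. irf1b, named for an activator of interferon and antigen presentation genes, was called at 0.59 (SE 0.19, limma adjusted p = 0.0258), but not when SFL at 10000 or 100000 or CFL at 10000 or 50000 cells was left out (up to 0.0919). irf5, a factor downstream of Toll-like receptors, stood at 15.14 ± 0.62 TPM in SFL against 19.98 ± 2.52 TPM in CFL (SD, n = 4). The log2 difference was 0.37 (SE 0.12, adjusted p = 0.0242). This call too was lost without SFL at 25000, 50000 or 100000 or CFL at 10000 or 100000 cells (up to 0.0788). irf10 and irf4a, both below the filter, were listed at 0 throughout SFL and reached 0.38 to 0.68 TPM and 0.09 to 0.24 TPM in the CFL libraries. irf1a was listed at 0 in every library, and irf4b did not exceed 0.06 TPM.

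The Irf2-binding proteins, known as transcriptional corepressors, were higher in CFL for 2 of 4 (27.6% of all tested genes). irf2bp2a stood at 5.96, 4.98, 5.20 and 4.63 TPM in SFL and at 20.50, 29.03, 24.47 and 23.98 TPM in CFL (log2 difference 2.04, SE 0.14, limma adjusted p = 4.88e-06). In SFL irf2bpl was at 0 in 3 of 4 libraries and reached 0.06 TPM in the library at 10000 cells, against 3.41, 2.13, 2.27 and 3.24 TPM in CFL (1.87, SE 0.16, adjusted p = 1.85e-05). The paralog irf2bp2b had the highest mean of all members over the 8 libraries. It stood at 81.65, 75.15, 81.08 and 76.43 TPM in SFL and 66.76, 74.28, 56.02 and 70.10 TPM in CFL. Its ranges did not overlap, but the difference of -0.24 did not pass (SE 0.10, adjusted p = 0.0778). irf2bp1 stood at 31.55, 24.59, 15.40 and 15.58 TPM in SFL and at 35.69, 38.69, 14.05 and 22.96 TPM in CFL, with overlap (adjusted p = 0.303).

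Of the 7 tested STAT genes, stat3 and stat5b were called lower in CFL and 0 higher (31.3% and 27.6% of all tested genes). stat3, the factor of interleukin-6 signals and the acute phase response in liver, was at 53.27, 67.40, 50.02 and 65.67 TPM in SFL and at 37.67, 33.60, 22.10 and 27.39 TPM in CFL. stat5b, which carries growth hormone signals, was at 53.38, 52.58, 33.42 and 33.75 TPM and at 25.81, 26.49, 13.49 and 20.93 TPM. For both genes every SFL library lay above every CFL library. The log2 differences were -0.96 for stat3 (SE 0.17, limma adjusted p = 0.00154) and -0.97 for stat5b (SE 0.19, adjusted p = 0.00237).

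stat2, which acts in the type I interferon complex, was the most abundant STAT gene of the 2 smaller SFL seedings, at 83.17, 81.66, 38.50 and 47.93 TPM in SFL and 34.12, 34.77, 27.60 and 53.63 TPM in CFL. Its CFL value lay below that of SFL at 3 densities and above it at 100000 cells, with a difference of -0.69 (SE 0.29, limma adjusted p = 0.0685, and 0.0287 with the replicate block). stat1a stood at 26.39, 23.50, 8.36 and 15.97 TPM in SFL and at 20.12, 16.98, 6.63 and 11.76 TPM in CFL. Its CFL value lay below that of SFL at each density, by less than it varied over densities (-0.38, SE 0.32, adjusted p = 0.332, and 0.00340 with the block). With the block stat6, the factor of interleukin-4 signals, passed at a higher level in CFL (0.38, blocked adjusted p = 0.0169) and the low stat5a at a lower one (-0.60, 0.0133), neither of which did so without it (0.395 and 0.120). stat4, known from lymphocytes, stayed below 1 TPM in every library. In the RefSeq annotation of the AstMex3_surface assembly, stat1b lies next to stat4 and stat5a next to stat3, and 60 of the 66 names were found there.

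**Figure D2:**
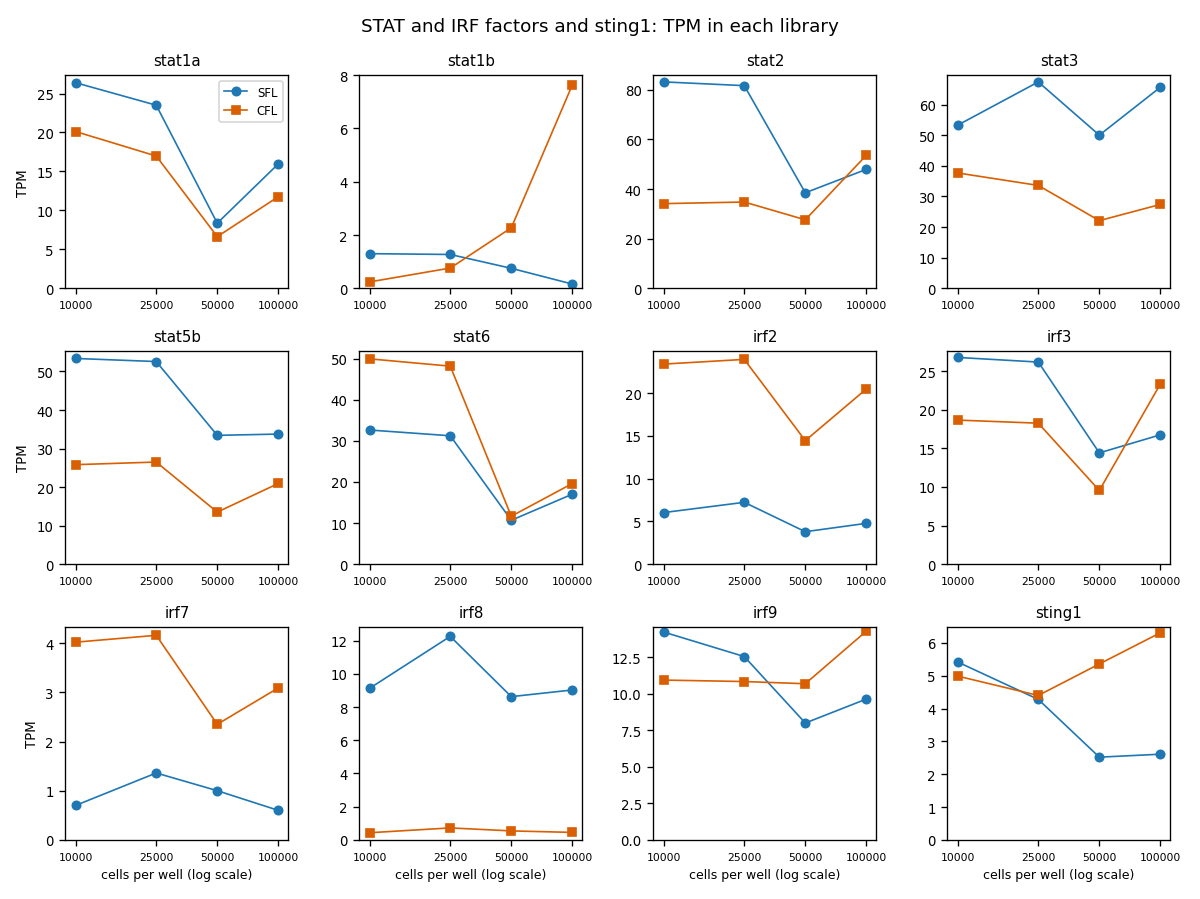
TPM of 6 STAT genes, 5 interferon regulatory factors and sting1 in each library (y axis, from 0) against seeding density as cells per well (x axis, log scale); each point is 1 library, blue circles SFL and orange squares CFL. stat3, stat5b and irf8 lie higher in SFL and irf2 and irf7 higher in CFL at every density, while stat1b and sting1 cross.

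Effectors, the antiviral products at the end of the pathway, held the 3 largest differences in size, all of isg15 genes. isg15 encodes a ubiquitin-like protein that is attached to other proteins after interferon. The gene ENSAMXG00000035639 was at 0.23, 0.42, 0 and 0 TPM in SFL and at 9.92, 14.47, 16.75 and 50.30 TPM in CFL, and its log2 difference was 4.11 (SE 0.39, limma adjusted p = 3.31e-05). ENSAMXG00000030334 was at 0.96, 3.06, 3.03 and 1.95 TPM in SFL and at 39.23, 33.96, 26.03 and 62.38 TPM in CFL (3.66, SE 0.29, adjusted p = 1.28e-05). ENSAMXG00000029458 was at 1.23, 0, 0 and 0.87 TPM in SFL and at 4.12, 10.85, 9.50 and 34.80 TPM in CFL (3.10, SE 0.50, adjusted p = 0.000794; 3.71 without SFL at 10000 cells). In all 3 every CFL library lay above every SFL library, and CFL at 100000 cells was the highest.

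The 4th isg15 gene, ENSAMXG00000039531, did not pass the filter. Its TPM were above 0 only in CFL at 25000 cells (0.65) and at 100000 cells (4.53). As genes that share a name may share reads that the authors' counting had to divide, the 4 were also summed. The sum was 2.42, 3.48, 3.03 and 2.82 TPM in SFL and 53.27, 59.93, 52.28 and 152.01 TPM in CFL, or 2.94 ± 0.44 and 79.4 ± 48.5 TPM (SD, n = 4).

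isg20, an exonuclease that degrades RNA, was at 18.02, 16.59, 12.81 and 12.58 TPM in SFL and at 41.65, 43.59, 33.38 and 36.88 TPM in CFL (log2 difference 1.33, SE 0.11, limma adjusted p = 1.62e-05). mxa, a dynamin-like GTPase that traps viral particles, was at 0.17, 0.12, 0.03 and 0.04 TPM in SFL and at 0.93, 1.63, 2.58 and 5.04 TPM in CFL (1.57, SE 0.27, adjusted p = 0.00111). Both were higher in every CFL library than in any SFL library. ifi35, an interferon-induced leucine zipper protein, stood at 16.25, 20.89, 11.28 and 12.82 TPM in SFL and at 29.90, 26.30, 15.28 and 20.40 TPM in CFL. Its ranges overlapped, and it was called at 0.55 (SE 0.19, adjusted p = 0.0385), with adjusted p up to 0.128 without SFL at 10000, 50000 or 100000 or CFL at 10000, 25000 or 100000 cells, and 0.0569 without the filter.

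The remaining effectors were not called. eif2ak2, the double-stranded RNA-activated kinase PKR that stops translation, stood at 10.1 ± 3.42 TPM in SFL against 6.70 ± 1.99 TPM in CFL (SD, n = 4). Its difference of -0.51 did not pass (SE 0.28, limma adjusted p = 0.142), and passed with the block (0.0213). ifit8, of a family that binds viral RNA, overlapped between the lines (adjusted p = 0.530). rsad2, the gene of the antiviral enzyme viperin, stood at 0 TPM throughout CFL and in SFL at 50000 and 100000 cells, and at 0.06 and 1.08 TPM in SFL at 10000 and 25000 cells. ifitm5, known in mammals from bone, did not exceed 0.23 TPM.

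**Figure D3:**
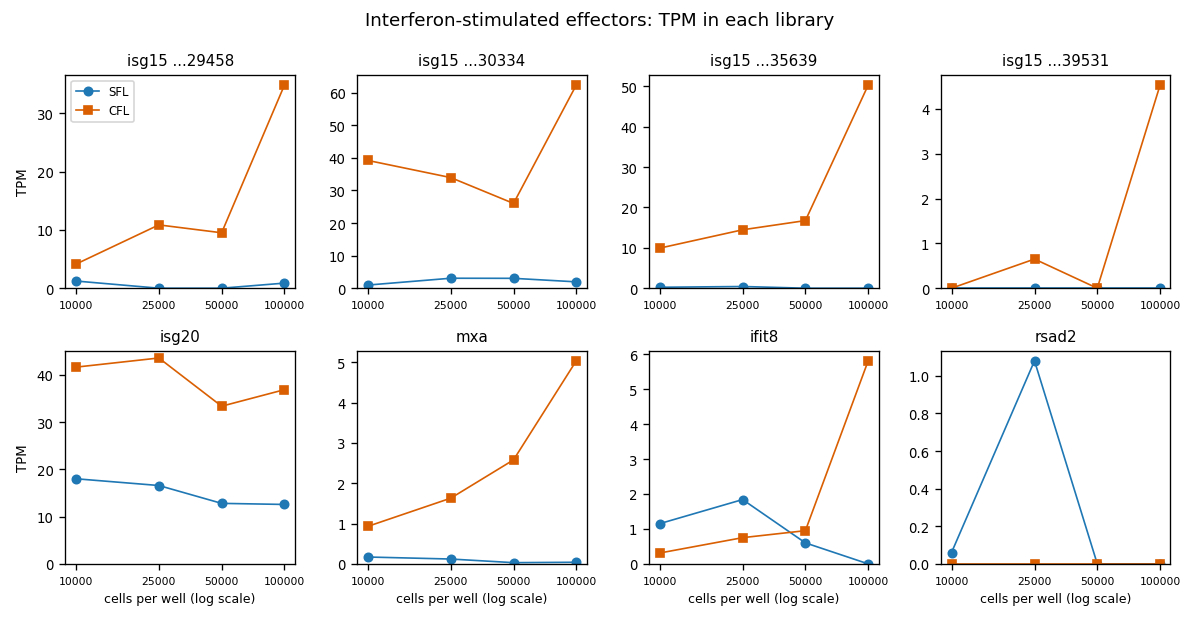
TPM of the 4 isg15 genes (labelled by the last 5 digits of their identifiers), isg20, mxa, ifit8 and rsad2 in each library (y axis, from 0) against seeding density as cells per well (x axis, log scale); each point is 1 library, blue circles SFL and orange squares CFL. The isg15 genes, mxa and ifit8 are highest in CFL at 100000 cells, whereas rsad2 is above 0 only in SFL.

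Of the 9 tested SOCS genes, the feedback brakes, 3 were higher in CFL, 2 lower and 4 were not called, near the shares over all tested genes (27.6% and 31.3%). socs9, a SOCS gene of fish, was at 3.56, 3.02, 1.80 and 1.27 TPM in SFL and at 18.71, 18.61, 5.50 and 11.11 TPM in CFL, without overlap (log2 difference 2.01, SE 0.28, limma adjusted p = 0.000337). socs2, best known for limiting growth hormone signals, was at 1.26 to 2.13 TPM in SFL and 2.66 to 4.43 TPM in CFL (0.74, SE 0.18, adjusted p = 0.00729). The copies of socs3, the brake on interleukin-6 and Stat3 signals, went opposite ways. socs3a stood at 37.55, 21.90, 23.46 and 16.10 TPM in SFL and at 16.06, 17.12, 10.30 and 9.70 TPM in CFL (-0.83, SE 0.15, adjusted p = 0.00148).

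socs3b stood at 21.91, 9.64, 10.22 and 9 TPM in SFL and at 23.96, 24.90, 14.25 and 22.55 TPM in CFL. It was called higher in CFL at 0.77 (SE 0.23, limma adjusted p = 0.0204), which was lost without SFL at 25000 or 100000 or CFL at 25000 or 100000 cells (up to 0.0614). socs5b was lower in CFL at every density (-0.99, SE 0.25, adjusted p = 0.00854). socs1a, the brake most closely tied to interferon, stood at 4.85, 3.03, 2.32 and 0.93 TPM in SFL and at 3.33, 3.99, 3.32 and 4.90 TPM in CFL, with overlap (adjusted p = 0.188). socs1b, socs4 and socs7 did not exceed 0.43 TPM. socs6a passed with the block, at a lower level in CFL (-0.34, blocked adjusted p = 0.0175, and 0.395 without it).

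The second comparison was across seeding densities, with density as a factor in both lines together. Of the 49 tested members, 17 passed the limma F test at an adjusted p-value under 0.05 (35.9% of all tested genes), and all 17 were lower at 50000 and 100000 than at 10000 and 25000 cells (34.1% of all genes). For a slope on log2(density) 0 of the 49 passed, and without CFL at 50000 cells 11 passed the F test. Shares of all genes in these alternative fits are not given here, so their counts are not read as a result about the members. Deposited TPM of most genes were lower at the larger seedings: the median change over all tested genes was -0.30 on the log2 scale, and 0.04 after the libraries were rescaled by the median of ratios. The members' own medians were -0.34 and 0.02. After that rescaling 9 members passed (28.8% of all genes), all of them lower (14.4%): stat1a, stat5a, stat6, trim25, ifngr1, socs5a, socs5b, socs6a and socs6b. Changes of these genes are therefore given on both scales, as the mean of the 2 larger minus that of the 2 smaller seedings over both lines.

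stat6 stood at 32.65, 31.25, 10.67 and 17.02 TPM in SFL and at 49.98, 48.20, 11.65 and 19.62 TPM in CFL. All libraries of the 2 smaller seedings lay above all of the larger ones. The change was -1.41 (SE 0.19, limma F test adjusted p = 0.000998) and -1.01 after rescaling (adjusted p = 0.00458). trim25 changed by -1.41 (SE 0.21, adjusted p = 0.00155) and by -1.08 after rescaling (0.00697), from 5.56, 7.26, 1.22 and 3.10 TPM in SFL and 12.12, 10.81, 2.61 and 4.10 TPM in CFL. stat1a, given above, changed by -1.01 (SE 0.21, adjusted p = 0.000914) and -0.62 (0.00530). Its order over densities was the same in both lines, with 10000 highest, then 25000, 100000 and 50000 cells.

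The SOCS genes studied mainly at growth factor receptors were also among the 9. socs5b stood at 25.05, 21.96, 10.95 and 11.85 TPM in SFL and at 15.48, 12.58, 3.70 and 4.57 TPM in CFL, a change of -1.26 (SE 0.14, limma F test adjusted p = 0.00269), or -0.89 rescaled (0.0137). socs6a was at 9.83, 8.45, 2.65 and 4.61 TPM and at 7.47, 7.25, 1.78 and 3.25 TPM, and socs6b at 6.21, 4.83, 1.51 and 2.44 TPM and at 7.82, 8.98, 2.37 and 2.43 TPM. Their changes were -1.22 (SE 0.18, adjusted p = 0.00104) and -1.3 (SE 0.15, adjusted p = 0.00313), or -0.88 and -0.98 rescaled (0.00483 and 0.0128). In each of these 3 genes both larger seedings lay below both smaller ones in each line. ifngr1 changed by -1.02 (SE 0.17, adjusted p = 0.00355), or -0.66 rescaled (0.0180).

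The low genes stat5a and socs5a completed the 9. stat5a was at 2.81, 3.13, 0.32 and 1 TPM in SFL and at 1.16, 1.45, 0.14 and 0.29 TPM in CFL, and socs5a at 1.85, 1.71, 0.48 and 0.94 TPM and at 2.94, 2.24, 0.35 and 0.62 TPM. The change of stat5a was -1.11 (SE 0.17, adjusted p = 0.00899), or -0.92 rescaled (0.0201), and that of socs5a -0.99 (SE 0.17, adjusted p = 0.0170), or -0.78 rescaled (0.0469). The socs5a call was lost without CFL at 25000 or 50000 cells (limma F test adjusted p = 0.0548 and 0.0696). Of the 8 members whose call ended with rescaling, socs9, irf2bp1 and nlrc3l kept a change of -0.33 to -0.62 and the others (irf2, stat5b, ifi35, socs3a and myd88) lay between -0.22 and 0.02, so no change relative to other genes is stated for them. No effector, Toll-like receptor or interferon gene passed on the rescaled values. With a single library per line and density, this F test takes its error from the disagreement of the lines over densities. A gene that changes in a single line, or in opposite ways in the lines, can therefore hardly pass it. No lack of change with density is read from a gene that did not pass.

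The last comparison asked whether members followed density differently in the lines. No member and 0 of all 13783 genes passed for the interaction of line and log2(density) (limma). With density as a replicate block, the difference in change between small and large seedings had adjusted p of at least 0.225 in every tested member. Before adjustment, 9 of the 49 members had p under 0.05 (4.06% of all genes), and in all 9 the slope was higher in CFL (2.2% of all genes). These were stat1b, mxa, socs1a, ifit8, dhx58, sting1, tlr7 (ENSAMXG00000001751) and the isg15 genes ENSAMXG00000035639 and ENSAMXG00000029458. Of these, stat1b, mxa, ifit8, tlr7 and both isg15 genes had a mean below 1 TPM in SFL and passed the filter through CFL. Without CFL at 100000 cells, 5 members had an unadjusted p under 0.05 (2.84% of all genes). The genes described next were picked after their values were seen, as those in which both larger seedings lay above both smaller ones in CFL and below them in SFL. This held for 6 of the 49 members (1.55% of all tested genes), and the converse for 0 (1.23%). Among the 6, stat1b, mxa, ifit8 and the isg15 gene ENSAMXG00000035639 passed the filter through CFL only. SFL values of mxa and of that isg15 gene did not exceed 0.17 and 0.42 TPM.

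stat1b stood at 1.3, 1.27, 0.75 and 0.16 TPM in SFL and at 0.24, 0.76, 2.27 and 7.63 TPM in CFL. SFL was 5.42-fold higher than CFL at 10000 cells and CFL 47.7-fold higher than SFL at 100000, from levels of which several are below 1 TPM. The changes with seeding differed between the lines by 2.53 on the log2 scale (SE 0.63, limma adjusted p = 0.256). mxa, given above, was at or under 0.17 TPM throughout SFL, and in CFL each larger seeding had the higher value (difference 1.19, SE 0.36, adjusted p = 0.312). ifit8 stood at 1.15, 1.84, 0.60 and 0 TPM in SFL and at 0.31, 0.75, 0.95 and 5.81 TPM in CFL (2.23, SE 0.75, adjusted p = 0.338).

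dhx58 stood at 6.96, 7.14, 3.78 and 3.68 TPM in SFL and at 4.53, 5.41, 5.51 and 11.30 TPM in CFL, a difference in change of 1.35 (SE 0.33, limma adjusted p = 0.251). sting1 stood at 5.42, 4.28, 2.52 and 2.61 TPM in SFL and at 4.99, 4.40, 5.36 and 6.31 TPM in CFL (0.97, SE 0.20, adjusted p = 0.225). The isg15 gene ENSAMXG00000035639 completed the 6 (1.62, SE 0.48, adjusted p = 0.306). None of these differences between the lines passed after adjustment, and the design has 1 library for each line and density. After rescaling by the median of ratios the pattern held for 8 members (1.55% of all genes), the same 6 with irf9 and stat2.

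**Figure D4:**
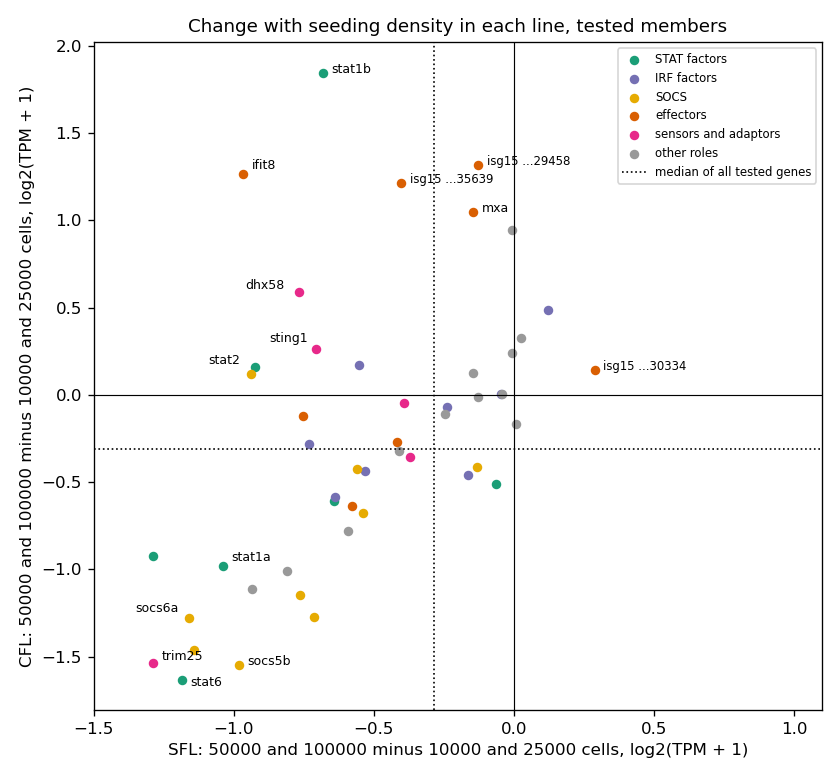
Change with seeding density in SFL (x axis) and CFL (y axis) for the 49 tested members, each the mean log2(TPM + 1) at 50000 and 100000 cells minus that at 10000 and 25000 cells, with 1 library per line and density; colours give roles and dotted lines the median change of all tested genes in each line. stat1b, ifit8, dhx58, sting1, mxa and 2 isg15 genes are among those left of 0 in SFL and above 0 in CFL, whereas stat6, trim25 and the socs6 and socs5b genes lie far below 0 in both.

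The library at 100000 cells was the highest of the CFL libraries for 19 of the 49 members (15.1% of all tested genes), and the highest of the SFL libraries for 2 (12.4%). The 19 included ifnphi1, the 3 tested isg15 genes, mxa, ifit8, eif2ak2, stat1b, stat2, irf3, irf9, ifih1, dhx58, sting1 and tlr7. The count rests on this 1 library, which also entered the mean used as the filter. Over the 8 libraries stat1b, ifit8, mxa and tlr7 (ENSAMXG00000001751) had means of 1.80, 1.43, 1.32 and 1.025 TPM. These 4 genes would not have passed the filter without CFL at 100000 cells. Some hepatocyte markers were also at their CFL maximum in this library, among them fgb (6.42 TPM against 1.73 to 2.78 TPM in the other CFL libraries) and cebpa (13.66 against 4.81 to 7.28 TPM). Their part in the result was not tested. Of the 24 leukocyte markers 4 were at their CFL maximum there, all at low levels: cd74a (0.20 TPM), cd79a (0.24 TPM), laptm5 (0.04 TPM) and 1 MFAP4 gene (0.07 TPM).

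Lists of further genes of these pathways were read in the same fits. They were written by name, with earlier results of these data known. Antigen presentation genes, many of them interferon-inducible in vertebrates, were higher in CFL in 14 of 22 tested genes and lower in 3, that is 63.6% and 13.6%, where 27.6% and 31.3% of all tested genes were called so. Their median difference was 0.62 on the log2 scale (-0.04 over all tested genes). The 2 genes named tap2a passed the filter through CFL alone, and among the other 20 genes 12 were higher and 3 lower. Among the list's largest differences, 1 tap2a gene, for a subunit of the peptide transporter, stood at 0 to 0.16 TPM in SFL and 4.37 to 12.77 TPM in CFL (log2 difference 3.20, SE 0.23, limma adjusted p = 6.47e-06), and the other at 0.06 to 0.17 TPM and 1.49 to 2.72 TPM (1.54, SE 0.16, adjusted p = 6.69e-05). psmb13a, an immunoproteasome subunit of fish, stood at 3.71 ± 0.75 TPM in SFL against 20.9 ± 0.69 TPM in CFL (SD, n = 4). The difference was 2.23 (SE 0.14, adjusted p = 2.5e-06). Unlike isg15 and mxa, the more abundant tap2a copy had its lowest CFL value at 100000 cells (4.37 TPM). The other copy stood at 2.61 TPM there, near the top of its CFL range.

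Of 17 tested interferon-stimulated genes outside the name rule, 5 were higher and 5 lower in CFL (29.4% each), near the shares over all tested genes (27.6% and 31.3%), with a median of -0.32. mov10b.1, an RNA helicase, stood at 0.47 to 1.82 TPM in SFL and 3.19 to 6.30 TPM in CFL (log2 difference 1.54, SE 0.23, limma adjusted p = 0.000528). lgals9l3, a galectin, was at 78.88 to 151.41 and 181.08 to 251.85 TPM (1.02, SE 0.21, adjusted p = 0.00282). cnp, a cyclic nucleotide phosphodiesterase, went the other way, at 175.66 to 219.55 TPM and 88.37 to 110.65 TPM (-1.01, SE 0.10, adjusted p = 5.07e-05). The ranges of these 3 genes did not overlap between the lines.

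Of 23 tested sensing adaptors and kinases, 6 were higher and 4 lower in CFL (26.1% and 17.4%, where 27.6% and 31.3% of all tested genes were), with a median of 0.00. nod2, a sensor of bacterial cell wall peptides, stood at 1.86 ± 0.61 TPM in SFL against 11.3 ± 0.77 TPM in CFL (SD, n = 4). The log2 difference was 2.13 (SE 0.13, limma adjusted p = 2.62e-06). Its relative nod1 was lower in CFL, at 2.26 ± 0.69 against 6.13 ± 1.1 TPM (-1.14, SE 0.17, adjusted p = 0.000508), as was the ubiquitin ligase trim32 (-1.31, SE 0.17, adjusted p = 0.000266).

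Receptor, Janus kinase and brake genes gave 4 higher and 1 lower of 17 (23.5% and 5.88%, where 27.6% and 31.3% of all tested genes were), with a median of 0.16. Of these, 2 passed the filter through 1 line only, jak3 among them. The names written for interferon receptor chains (beginning crfb) and tyk2 matched no listed gene. The only receptor chains in this list were therefore il10ra and il10rb. il10ra, a receptor chain for interleukin-10, stood at 1.73 to 3.09 TPM in SFL and 27.68 to 40.56 TPM in CFL (log2 difference 3.33, SE 0.12, limma adjusted p = 1.49e-07). jak3, known from lymphocyte cytokine receptors, was at most at 0.02 TPM in SFL and at 3.96 to 7.71 TPM in CFL (2.72, SE 0.18, adjusted p = 4.14e-06). jak2b was the gene called lower (-0.85, SE 0.15, adjusted p = 0.00122).

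NF-kappa-B genes gave 8 higher and 3 lower of 19 (42.1% and 15.8%, where 27.6% and 31.3% of all tested genes were), with a median of 0.18. nfkb2 stood at 15.78 to 22.62 TPM in SFL and 37.31 to 77.55 TPM in CFL (log2 difference 1.52, SE 0.18, limma adjusted p = 0.000144), and nfkbiab, an inhibitor of the factor, at 7.87 to 8.50 and 17.90 to 21.30 TPM (1.17, SE 0.10, adjusted p = 2.29e-05). tab2, an adaptor of the kinase that activates the pathway, was lower in CFL (-1.31, SE 0.11, adjusted p = 1.36e-05). Across densities, 5 to 11 genes of each list passed the F test on deposited TPM and all were lower at the larger seedings (35.9% of all tested genes were called and 34.1% lower). After rescaling by the median of ratios this did not hold (28.8% called and 14.4% lower). Then 11 antigen presentation genes passed, of which 1 was lower, 8 NF-kappa-B genes, of which 3 were lower, and 7 sensing adaptors and kinases, of which 4 were lower. Of the receptor, Janus kinase and brake genes 4 passed, all lower, and of the other interferon-stimulated genes 0.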

How the data were processed

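RNA of 8 spheroid libraries, 4 of SFL and 4 of CFL, was compared. The labels name a stranded mRNA kit and single-end sequencing. The deposited table holds TPM per gene, made by the authors with STAR 2.7.3a and RSEM 1.3.0, per the submitters' processing notes; genome build, annotation and strand setting are not given in the sources used here. How well the reads of near-identical genes could be told apart is therefore unknown. Depth is unknown, so no counting interval or floor is given. All 8 value columns were mapped by title, and 0 were left unmapped.

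Here, log2(TPM + 1) of the 13783 genes with a mean of at least 1 TPM was fitted with limma 3.58.1 in R 4.3.3 (eBayes with trend), with Benjamini-Hochberg adjustment over all of them and a threshold of 0.05. Models had line and log2(density), line and density as a factor (F test), or their interaction. Changes between small (10000, 25000) and large (50000, 100000) seedings came from a fit of line and size class. No density has a second library of a line, so an SD across the libraries of a line includes what density does. Nothing says that libraries came from separate cultures, so p-values measure the spread between these libraries.

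Pairing rests on the shared density in the titles. Across genes, SFL and CFL libraries of equal density, each taken relative to the mean of its line, had correlations of 0.51, 0.49, 0.64 and 0.31 (10000 to 100000 cells), each over 0.1. Unequal densities within the smaller seedings gave like values (0.48 and 0.52), so there the block separates small from large seedings more than single densities. Within the larger seedings unequal densities gave 0.38 and 0.39, below the pair at 50000 cells (0.64) and above that at 100000 (0.31).

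Members and lists were chosen with earlier results of these data known. Members were given with every value where their mean was at least 1 TPM and they passed the line test with a log2 difference of at least 1 in size, passed the density test or were among the 5 most abundant, and from each list the 3 largest called differences were named; some others are described after their values were seen. The fits were also run on simulated data, in which most genes had no density change, unlike the data here. In that run changes between small and large seedings were recovered less often than line differences. How often true changes were missed in these data is not known from it. Sets limited to members or list genes above 1 TPM in both lines, rescaled list counts, and the interaction with 1 library left out, were added after seeing the data. Protein and promoter sequences were not used here. The values of 1 member are not reported here.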

Additional observations from a re-analysis of the deposited data

Results flagged for a closer look

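In 98 groups of 4 libraries (each of the 49 tested members within each line), the highest library stood apart in 8 by Dixon's test for outliers. Chance flags about 1 in 20 groups of replicates drawn from a normal distribution, whereas these are TPM of libraries that differ in density. That rate may therefore not apply here. No share over all tested genes is given, so the count is not read as a result about the members. In CFL at 100000 cells these were isg15 (ENSAMXG00000035639) at 50.30 TPM, irf9 at 14.29 TPM, dhx58 at 11.30 TPM and ifit8 at 5.81 TPM. In SFL they were irf8 at 12.26 TPM at 25000 cells and, at 10000 cells, socs3b at 21.91 TPM, tlr18 at 1.35 TPM and irf2bpl at 0.06 TPM, the last with the other 3 libraries listed at 0.

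For 6 of the 49 tested members the change from small to large seeding had opposite signs, upward in CFL and downward in SFL. Small and large seedings did not overlap in either line, a pattern that 1.55% of all tested genes showed. In SFL mxa and isg15 (ENSAMXG00000035639) did not exceed 0.17 and 0.42 TPM. CFL minus SFL, the changes differed on the log2 scale by 1.19 for mxa, 1.35 for dhx58, 2.23 for ifit8, 0.97 for sting1, 1.62 for isg15 (ENSAMXG00000035639) and 2.53 for stat1b. The limma p of these differences ran from 0.00273 to 0.0233 before adjustment and from 0.225 to 0.338 after it, so none passed. As the 6 were picked for this pattern, the p-values before adjustment are no separate support for it. Of the 6, stat1b, mxa, ifit8 and isg15 (ENSAMXG00000035639) passed the filter through CFL only.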

How the results depend on the processing

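The 21 members called higher in CFL became 13 with a filter at a mean of 5 TPM and 16 to 21 when 1 library was left out. The 5 called lower became 9 without a filter, 10 with density as a replicate block and 5 to 8 when 1 library was left out (8 without SFL at 50000 cells). Calls lost at 5 TPM were of members no longer fitted. Calls of lower members added without a filter were of nlrc3, socs4, stat4 and 1 tlr2 gene, all with means under 1 TPM. Where no share over all genes is given above, the counts of this section describe the fits and not the members. The 17 called across density became 9 after median-of-ratios scaling, 8 after quantile normalization and 0 for a slope on log2(density), and 11 to 19 when 1 library was left out (11 without CFL at 50000 cells). The 0 called for line by density stayed 0 in every alternative run. The members' median line difference of 0.41 became 0.56 with a pseudocount of 0.1, 0.21 without a filter, 0.27 with the filter at 5 TPM, and 0.26 to 0.53 when 1 library was left out. Of the 26 called line differences, 20 kept their call and sign in every alternative in which they could be fitted; members under 5 TPM have no value under that filter. Uncalled line differences changed sign when 1 library was left out, over ranges of -0.078 to 0.224 for irf9, -0.135 to 0.002 for tlr3, -0.038 to 0.279 for socs5a, -0.091 to 0.442 for dhx58 and -0.191 to 0.705 for ifit8. The density change of myd88 turned to 0.015 after median-of-ratios scaling and to 0.073 after quantile normalization. The replicate block changed no other call than those given above. TPM give no depth, so differences between genes near 0 rest on an unknown number of reads.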
